A study of Saccharomyces cerevisiae with 16 samples.

Results

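The 10 genes described here encode the 6 subunits of the replicative helicase (MCM2, MCM3, MCM4, MCM5, MCM6 and MCM7), the 2 factors that load it with the origin recognition complex (CDC6 and TAH11, also called CDT1), and the 2 subunits of the Dbf4-dependent kinase (CDC7 and DBF4). They were found among 6256 genes on Agilent single color yeast arrays by the standard symbol of each systematic name. No measured value entered that search, but the members were chosen with earlier results of these data known. Total RNA came from SK1-congenic MATa/α diploids shifted from acetate to sporulation medium, taken at 0, 2, 4 and 6 h, with 2 arrays at each time in each strain (16 arrays in all). The strains were WT (DSY1089) and ime2Δ (YGB221, ime2Δ::TRP1), and both carried ho::LYS2 and the marker alleles lys2, ura3, leu2::hisG, trp1::hisG, arg4 and his4. The ime2Δ strain therefore also differed from WT by the TRP1 marker. Each strain was 1 diploid, and the times of an experiment may share a culture, so that p-values measure the spread between these arrays.

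A replication origin is licensed when the origin recognition complex, Cdc6 and Cdt1 (Tah11) place Mcm2-7 rings on DNA in an inactive form. The Dbf4-dependent kinase (DDK), a catalytic subunit Cdc7 bound to its unstable activator Dbf4, phosphorylates loaded Mcm2-7 so that Cdc45 and GINS can join, and S phase cyclin-dependent kinase acts at the same step. In meiosis, DDK is also used after replication, for the start of recombination, for monopolin at kinetochores and for relief of repression of NDT80. IME2 encodes a meiosis-specific protein kinase that promotes entry into premeiotic S phase.

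All values are log2 signal over the median of the same array (mean of 2 spots per gene), so that a level of 0 is the level of the median gene, and a difference is a log2 ratio given with its SE. Differences were tested with limma over 6254 genes with Benjamini-Hochberg adjustment, and a gene was called at adjusted p under 0.05. All 10 genes were well above background on all 16 arrays. IME2 was well above background on 8 of 8 WT arrays (2.48 to 5.43) and on 0 of 8 ime2Δ arrays (-12.0 to -11.1). The meiotic marker list (10 genes, such as SPO11 and HOP1) had 9 members higher at 2 h than at 0 h in each strain, with medians of 3.62 in WT and 3.52 in ime2Δ. Of all genes, 22.2% in WT and 17.6% in ime2Δ were called higher. Between the strains, 4 of these markers were higher in WT at 0 h (median over the list 0.86) and 4 at 2 h (median 0.81), and 0 were lower. All genes had 4.67% called in either direction at 0 h and 9.05% called higher in WT at 2 h. Each replicate number lay on its own slide, and WT and ime2Δ lay in separate columns of both slides, so strain and slide column cannot be told apart. Each time likewise lay in its own slide row on both slides, so time and slide row cannot be told apart. Of the comparisons below, those of 4 h with 0 or 2 h and of 6 h with 0 or 4 h, and the differences between strains in the change from 0 to 4 h and from 0 to 6 h, were added after the others had been set. In bulk RNA, fewer cells with a transcript and less transcript per cell cannot be told apart.

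In WT, the helicase genes did not move as a unit. MCM5 and MCM6 rose by 2 h. MCM3 and MCM7 fell by 4 h, MCM2, MCM3, MCM6 and MCM7 were lower at 6 h than at 2 h, and MCM4 was called at no time. Of the 10 genes, 4 were higher and 0 lower at 2 h than at 0 h, where 22.2% of all genes were called higher and 49.4% in either direction. At 6 h, 5 of the 10 were lower than at 2 h and 0 were higher (4 of the 6 MCM genes lower), where 32.5% of all genes were called lower and 62.9% in either direction. Over the single steps, 4 were higher and 2 lower at 4 h than at 0 h (62.5% of all genes called), 2 were lower at 4 than at 2 h (26%), and 5 were lower at 6 than at 4 h (55.1%). The median difference between 6 and 2 h was -1.03 over the 6 MCM genes and -0.06 over all genes. Many genes changed over the time course in WT, and the members' shares are read against these percentages. Arrays of 2 groups that do not overlap were common among all genes. Their share was 65.7% to 83.4% in the comparisons of times in WT and 34.6% to 77.2% in those in ime2Δ. Between the strains it was 53.9% to 80.7%. Statements below that arrays did not overlap are therefore descriptions.

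**Figure D1:**
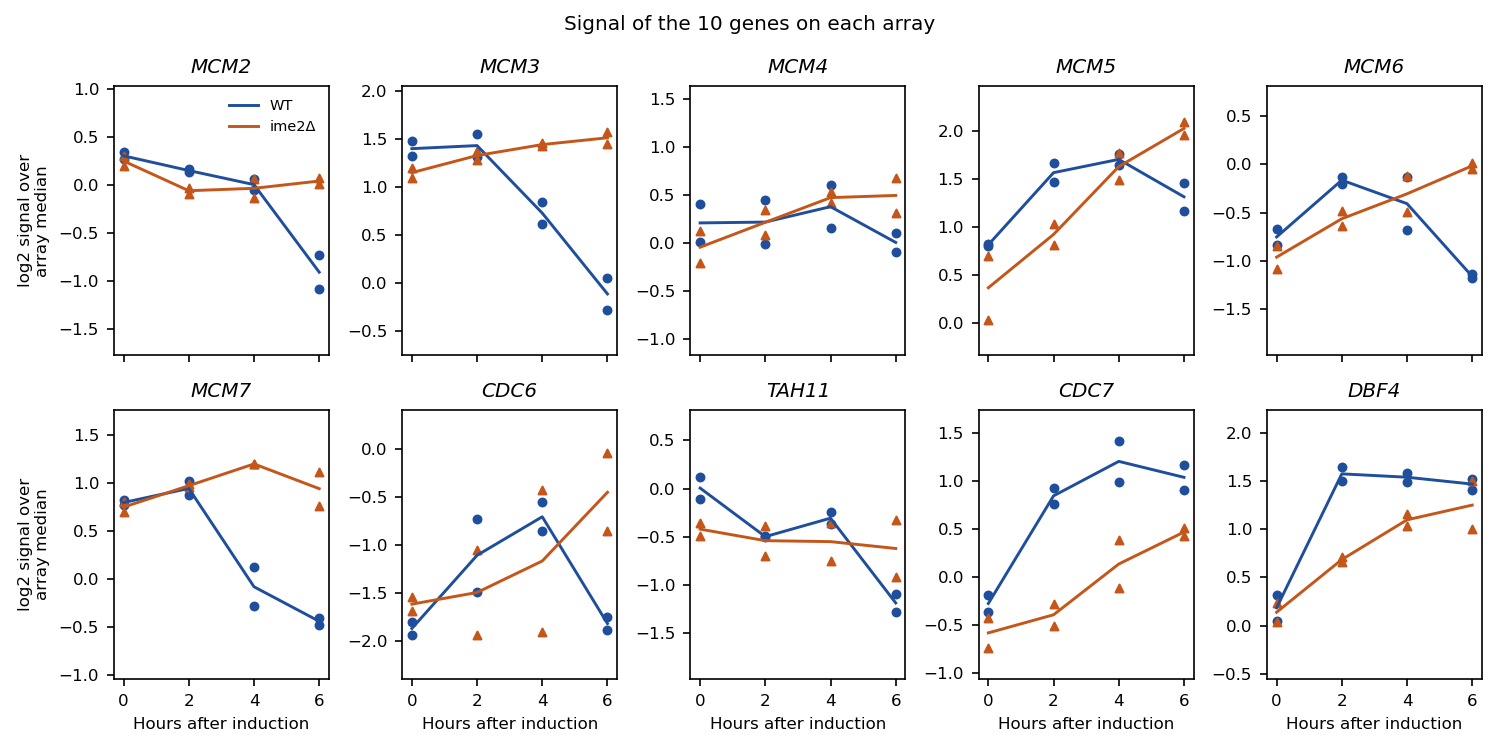
Signal of each gene on each array (log2 over the array median) against hours after induction, in WT (blue circles) and ime2Δ (orange triangles). Points are the 2 arrays of a group and lines join their means, and each panel spans the same range in log2 units. MCM3 fell in WT to -0.28 and 0.05 at 6 h and stood at 1.44 and 1.57 in ime2Δ, while DBF4 reached 1.51 and 1.65 in WT by 2 h.

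MCM3 contacts the origin recognition complex and Cdc6 when the ring is recruited. In WT its 2 arrays read 1.47 and 1.32 at 0 h, 1.55 and 1.30 at 2 h, 0.61 and 0.84 at 4 h, and 0.05 and -0.28 at 6 h. The 4 h arrays lay below every earlier WT array and the 6 h arrays lay below those at 4 h. MCM3 did not pass between 0 and 2 h (0.03 ± 0.17), fell between 2 and 4 h (-0.70 ± 0.17, limma adjusted p = 0.00836), and fell again between 4 and 6 h (-0.84 ± 0.17, adjusted p = 0.00122). Its difference between 6 and 2 h was -1.54 ± 0.17 (2.91-fold lower, limma adjusted p = 5.62e-06), with -1.5 in the first and -1.58 in the second replicate. The step from 2 to 4 h lost its call without the first WT array at 2 h or at 4 h (adjusted p up to 0.097).

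MCM7, a subunit of the core that it forms with MCM4 and MCM6, followed a like course. Its WT levels were 0.77 and 0.82 at 0 h, 0.87 and 1.01 at 2 h, -0.28 and 0.12 at 4 h, and -0.40 and -0.48 at 6 h. No array at 4 or 6 h reached those at 0 and 2 h. The fall lay mainly between 2 and 4 h (-1.02 ± 0.17, limma adjusted p = 0.00114), and the step from 4 to 6 h did not pass (-0.36 ± 0.17, adjusted p = 0.0934). Over 2 to 6 h the difference was -1.38 ± 0.17 (2.61-fold lower, limma adjusted p = 1.88e-05). On the first WT array at 4 h the 2 MCM7 spots lay 1.42 apart, at -0.99 and 0.43, and the brighter or the dimmer spot alone left the call in place.

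MCM2, whose tail binds histones at the fork and which forms the gate of the ring with MCM5, changed late. The levels in WT were 0.34 and 0.26 at 0 h, 0.14 and 0.16 at 2 h, 0.06 and -0.06 at 4 h, and -0.73 and -1.09 at 6 h. Only the 6 h pair stood well below the others. The difference was -0.15 ± 0.16 between 2 and 0 h, which did not pass, and -0.91 ± 0.16 between 6 and 4 h (limma adjusted p = 0.000441). Between 6 and 2 h it was -1.06 ± 0.16 (2.08-fold lower, adjusted p = 7.95e-05).

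MCM6, the subunit that binds Cdt1 during loading, rose and then fell. It read -0.67 and -0.84 at 0 h, -0.13 and -0.20 at 2 h, -0.68 and -0.13 at 4 h, and -1.18 and -1.14 at 6 h. The 2 h arrays lay above those at 0 h, the 4 h arrays overlapped both, and the 6 h arrays were the lowest of the 8. The rise at 2 h was 0.59 ± 0.20 (limma adjusted p = 0.0246), and it lost its call without any 1 of the 4 arrays compared (adjusted p up to 0.129) and under quantile normalization (adjusted p = 0.0779). The fall between 2 and 6 h was -1.0 ± 0.20 (2.0-fold, adjusted p = 0.000698).

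MCM5 is the subunit in which a known mutation bypasses the need for DDK in mitotic budding yeast cells. Its WT levels were 0.80 and 0.83 at 0 h, 1.46 and 1.66 at 2 h, 1.65 and 1.76 at 4 h, and 1.17 and 1.46 at 6 h. All 6 later arrays exceeded both 0 h arrays. MCM5 rose by 0.75 ± 0.21 at 2 h (1.68-fold, limma adjusted p = 0.0111), a call lost without the first WT array at 0 h or the second at 2 h (adjusted p up to 0.0815), and by 0.89 ± 0.21 at 4 h against 0 h (adjusted p = 0.0028). Between 2 and 6 h the difference was -0.25 ± 0.21 (adjusted p = 0.323, interval -0.71 to 0.21), so MCM5 had no called fall.

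MCM4 carries the tail through which DDK relieves inhibition of the helicase. In WT it read 0.41 and 0.01 at 0 h, 0.45 and -0.01 at 2 h, 0.60 and 0.16 at 4 h, and 0.10 and -0.09 at 6 h. Both 6 h arrays lay below both 4 h arrays (-0.37 ± 0.23, limma adjusted p = 0.189), while the arrays of the other pairs of times overlapped. Between 4 and 6 h in WT, arrays did not overlap in 76% of all genes. The first replicate was the higher at each time. The difference between 6 and 2 h was -0.21 ± 0.23 (limma adjusted p = 0.444), with an interval from -0.71 to 0.29.

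In ime2Δ no member was called lower in any of the comparisons between times. MCM2 was nevertheless lower on all 6 later arrays than on both 0 h arrays, by uncalled differences of -0.31, -0.28 and -0.21 at 2, 4 and 6 h. The 5 members higher at 6 h than at 0 h were MCM5, MCM6, CDC6, CDC7 and DBF4, where 24.5% of all genes were called higher and 54.7% in either direction. At 4 h, 5 were higher than at 0 h, where 50.3% of all genes were called. Between 2 and 4 h and between 4 and 6 h limma called 0 of the 10 (3 and 0 at an unadjusted p under 0.05), where 1.38% and 0% of all genes were called. MCM5 read 0.04 and 0.70 at 0 h, 0.81 and 1.03 at 2 h, 1.48 and 1.77 at 4 h, and 1.95 and 2.09 at 6 h in this strain. No later array overlapped those of an earlier time. The total rise was 1.66 ± 0.21 (3.15-fold, limma adjusted p = 3.93e-05). The lowest of these arrays, the first at 0 h, had spots of -0.54 and 0.61.

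MCM6 in ime2Δ read -0.84 and -1.08 at 0 h, -0.64 and -0.49 at 2 h, -0.49 and -0.12 at 4 h, and 0.01 and -0.04 at 6 h. It rose by 0.95 ± 0.20 over 6 h (1.93-fold, limma adjusted p = 0.00135), and both 6 h arrays lay above all earlier ones. MCM3 in ime2Δ stayed between 1.09 and 1.57 on all 8 arrays, MCM2 between -0.14 and 0.30, and MCM7 between 0.69 and 1.20. Their differences between 6 and 0 h were 0.36 ± 0.17 (limma adjusted p = 0.0832), -0.21 ± 0.16 (adjusted p = 0.279) and 0.19 ± 0.17 (adjusted p = 0.367). MCM7 was, however, called higher at 4 h than at 0 h (0.45 ± 0.17, adjusted p = 0.0453). With each array left out in turn this value was 0.40 to 0.50. Its call was lost with normexp background correction, a fit of only the groups compared and the dimmer spot (adjusted p up to 0.139). MCM4 in ime2Δ ranged from -0.21 to 0.68, with 0.54 ± 0.23 between 6 and 0 h (adjusted p = 0.0645).

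The loading factors took courses of their own. TAH11, which brings Mcm2-7 to the origin, read 0.12 and -0.11 at 0 h, -0.49 and -0.51 at 2 h, -0.25 and -0.37 at 4 h, and -1.10 and -1.28 at 6 h in WT. The 6 h arrays were the lowest of the 8. TAH11 fell by 1.19 between 0 and 6 h (SE 0.21, 2.29-fold, limma adjusted p = 0.000242), when 4 of the 10 members were lower and 2 higher and 71% of all genes were called in either direction. It was also lower at 6 than at 2 h (-0.69 ± 0.21, adjusted p = 0.0134), a call lost without the first WT array at 2 h or the second at 6 h (adjusted p up to 0.0787). Most of the fall came after 4 h (-0.88 ± 0.21 between 6 and 4 h, adjusted p = 0.00434). In ime2Δ all 8 arrays lay between -0.92 and -0.32, with no called change and -0.20 ± 0.21 between 6 and 0 h (adjusted p = 0.448).

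CDC6 encodes the ATPase that joins the origin recognition complex to receive the ring, and it had the widest spread of the 10 genes (SE 0.44 for a difference of 2 groups). In WT it read -1.80 and -1.94 at 0 h, -1.49 and -0.73 at 2 h, -0.56 and -0.86 at 4 h, and -1.88 and -1.75 at 6 h. The arrays at 0 and 6 h formed a low set that the 2 and 4 h arrays did not overlap. CDC6 rose by 1.16 ± 0.44 at 4 h against 0 h (limma adjusted p = 0.0333) and fell by 1.11 between 4 and 6 h (adjusted p = 0.046), and leaving out any 1 of the 4 arrays compared ended each call (adjusted p up to 0.142 and 0.179). In ime2Δ it read -1.69 and -1.54, -1.93 and -1.06, -1.91 and -0.42, and -0.86 and -0.05 at the 4 times. The 2 replicates lay far apart after 0 h, and the rise over 6 h (1.16 ± 0.44, adjusted p = 0.038) lost its call without the second array at 6 h or either array at 0 h (adjusted p up to 0.248). The spots of CDC6 were over 1 log2 unit apart on the first arrays of WT at 2 h and of ime2Δ at 4 h.

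Both kinase genes rose early in WT and stayed up. CDC7, the catalytic subunit, read -0.36 and -0.19 at 0 h, 0.76 and 0.93 at 2 h, 0.99 and 1.42 at 4 h, and 0.91 and 1.17 at 6 h. Every later array exceeded both 0 h arrays. The rise at 2 h was 1.12 ± 0.21 (2.17-fold, limma adjusted p = 0.000857), with 1.12 and 1.11 in the replicates, and no later step passed (0.36 ± 0.21 between 4 and 2 h and -0.17 ± 0.21 between 6 and 4 h).

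DBF4, the regulatory subunit, read 0.32 and 0.05 at 0 h, 1.51 and 1.65 at 2 h, 1.5 and 1.59 at 4 h, and 1.41 and 1.53 at 6 h in WT. The 6 later arrays lay within a span from 1.41 to 1.65. It rose by 1.39 ± 0.18 at 2 h (2.62-fold, limma adjusted p = 6.09e-05). Between 6 and 2 h the difference was -0.11 ± 0.18 (adjusted p = 0.634, interval -0.50 to 0.29). DBF4 alone of the 10 genes was on the study's lists of target genes of the G1/S transcription factors MBF and SBF.

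In ime2Δ the kinase genes started from levels that were not called different from WT, and most of their calls came at 4 and 6 h. DBF4 read 0.24 and 0.04 at 0 h, 0.66 and 0.71 at 2 h, 1.04 and 1.16 at 4 h, and 1.0 and 1.5 at 6 h. It was the only member called at 2 h in this strain (0.55 ± 0.18, limma adjusted p = 0.0303), where 17.6% of all genes were called higher and 39.7% in either direction, and without any 1 of the 4 arrays compared the call was lost (adjusted p up to 0.158). By 6 h the rise was 1.11 ± 0.18 (2.16-fold, adjusted p = 0.000248), and 1 array at 6 h lay within the range of WT.

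CDC7 in ime2Δ read -0.74 and -0.42 at 0 h, -0.51 and -0.28 at 2 h, -0.11 and 0.38 at 4 h, and 0.51 and 0.42 at 6 h. The 0 and 2 h arrays overlapped, and both 6 h arrays stood above all earlier ones. The difference was 0.19 ± 0.21 at 2 h (limma adjusted p = 0.507) and 1.05 ± 0.21 at 6 h (2.07-fold, adjusted p = 0.00112). All 8 ime2Δ arrays lay below the 6 WT arrays taken from 2 to 6 h.

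The strains were then compared at each time. At 0 h, 0 of the 10 genes were called, where 4.67% of all genes were (limma), and 0 had an unadjusted p under 0.05. The largest of the 10 differences at 0 h was that of MCM5 (0.45 ± 0.21, adjusted p = 0.262). At 2 h, the 2 kinase genes were higher in WT, CDC7 by 1.24 ± 0.21 (2.36-fold, adjusted p = 0.00162) and DBF4 by 0.89 ± 0.18 (1.85-fold, adjusted p = 0.0055), where 9.05% of all genes were called higher and 13.6% in either direction. CDC7 differed by 1.27 and 1.20 in the 2 replicates and DBF4 by 0.85 and 0.94. The DBF4 call was lost without the first ime2Δ or the second WT array at 2 h (adjusted p up to 0.0658).

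In the main fit, which did not use the slide as a block, the WT rise in these kinase genes was not shown to differ from that in ime2Δ. The difference between strains in the change from 0 to 2 h was 0.93 ± 0.30 for CDC7 (limma adjusted p = 0.13) and 0.84 ± 0.26 for DBF4 (adjusted p = 0.111), with 0 of the 10 genes called (2, CDC7 and DBF4, at an unadjusted p under 0.05) and 3.33% of all genes. With the slide as a block (the replicate block), CDC7 was called at the same 0.93 (adjusted p = 0.0301). In data simulated for this comparison, 15% of genes changed by 1 log2 unit were recovered among 6254 genes.

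**Figure D2:**
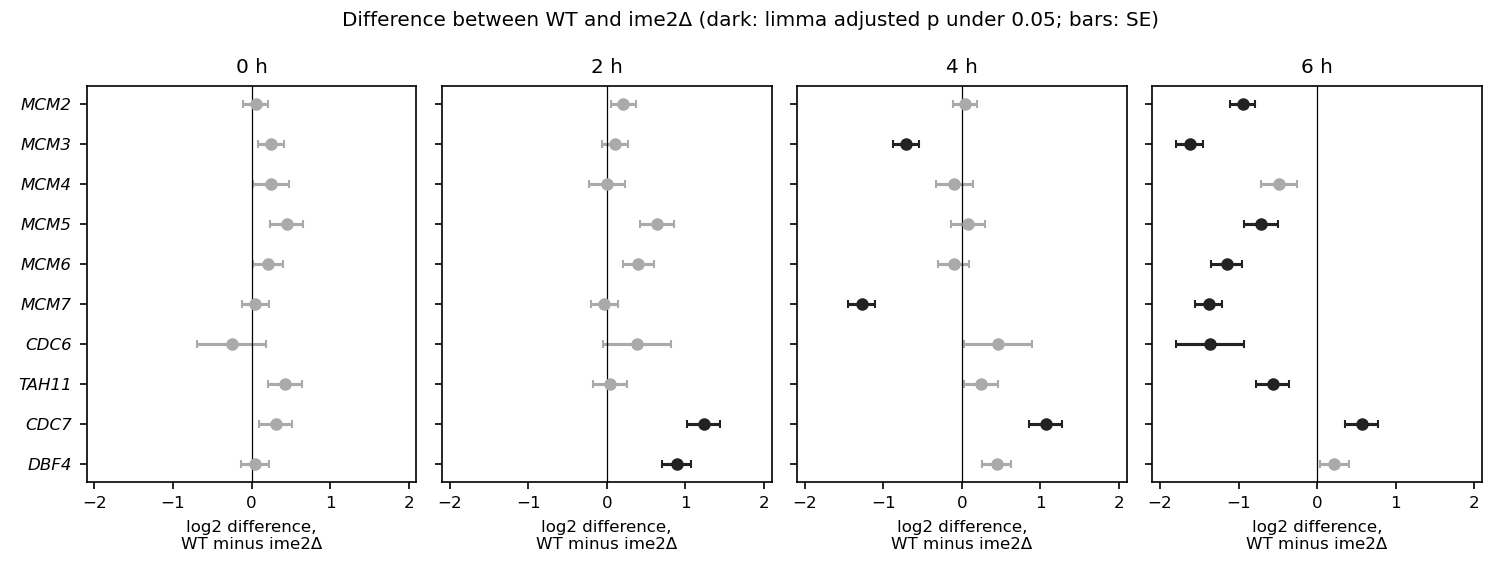
Difference between WT and ime2Δ for each gene (log2, WT minus ime2Δ) at 0, 2, 4 and 6 h, with bars for the SE and dark points where limma's adjusted p was under 0.05. CDC7 and DBF4 were to the right at 2 h (1.24 and 0.89), and 8 genes were to the left at 6 h, 7 of them called, from TAH11 (-0.57) to MCM3 (-1.62), with MCM4 uncalled at -0.49.

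At 4 h, MCM7 (-1.28 ± 0.17, 2.42-fold lower in WT, limma adjusted p = 0.000147) and MCM3 (-0.71 ± 0.17, 1.64-fold lower, adjusted p = 0.00634) were lower in WT and CDC7 was higher (1.07 ± 0.21, adjusted p = 0.00223), where 31.2% of all genes were called. Without the first WT array at 4 h the MCM3 value had an adjusted p of 0.0503. The other 4 MCM genes lay within -0.10 to 0.07 of ime2Δ at this time. The difference between strains in the change from 0 to 4 h was called for MCM7 (-1.32 ± 0.24, adjusted p = 0.0031) and MCM3 (-0.96 ± 0.24, adjusted p = 0.0162, lost without the first array of WT at 0 h or of either strain at 4 h, adjusted p up to 0.063), where 15.6% of all genes were called.

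At 6 h, 5 of the 6 MCM genes and both loading factors were lower in WT than in ime2Δ, and 1 gene, CDC7, was higher. Of all genes, 33.1% were called lower and 64.2% in either direction at this time. The differences were -1.62 ± 0.17 for MCM3 (3.08-fold, limma adjusted p = 3.48e-06), -1.38 ± 0.17 for MCM7 (2.60-fold, adjusted p = 1.97e-05), -1.15 ± 0.20 for MCM6 (2.22-fold, adjusted p = 0.000249) and -0.95 ± 0.16 for MCM2 (1.93-fold, adjusted p = 0.000193). In each of these 4 genes both WT arrays lay below both ime2Δ arrays, and leaving out any 1 array kept the call. Such a lack of overlap, in either direction, held for 80.7% of all genes at 6 h. The median over the 6 MCM genes was -1.05 and that over all genes was -0.10.

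The remaining calls at 6 h were less stable when an array was left out. MCM5 differed by -0.71 ± 0.21 (limma adjusted p = 0.0109), CDC6 by -1.36 ± 0.44 (adjusted p = 0.0152), TAH11 by -0.57 ± 0.21 (adjusted p = 0.0342) and CDC7 by 0.57 ± 0.21 (adjusted p = 0.0313). Without the first WT or the second ime2Δ array at 6 h the MCM5 value did not pass (adjusted p up to 0.0756), and without the second array of either strain the CDC6, TAH11 and CDC7 values did not (adjusted p up to 0.131, 0.332 and 0.168). CDC6 also lost its call without the first WT array, and CDC7 without the first ime2Δ array. With scaling to the 75th percentile the CDC7 value was 0.29 (adjusted p = 0.243), and quantile normalization, a fit of only the groups compared and the dimmer spot ended the TAH11 call (adjusted p up to 0.228). MCM4 differed by -0.49 ± 0.23 (adjusted p = 0.0799) and passed with the replicate block (adjusted p = 0.00829), and DBF4 by 0.22 ± 0.18 (adjusted p = 0.31).

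The course after 2 h differed between the strains in 7 of the 10 genes, where 23.4% of all genes were called in this direction and 48.2% in either. The difference between strains in the change from 2 to 6 h was -1.73 ± 0.24 for MCM3 (limma adjusted p = 9.1e-05), -1.55 ± 0.28 for MCM6 (adjusted p = 0.000725), -1.35 ± 0.24 for MCM7 (adjusted p = 0.000763), -1.35 ± 0.30 for MCM5 (adjusted p = 0.00303) and -1.16 ± 0.22 for MCM2 (adjusted p = 0.00115). These 5 calls stood without any 1 array. Beside them, MCM5 in ime2Δ rose by 1.1 ± 0.21 between 2 and 6 h (adjusted p = 0.00645, 0.0708 without the first array at 2 h), while its value in WT was uncalled. MCM6 had its called fall in WT and an uncalled 0.55 ± 0.20 in ime2Δ (adjusted p = 0.0982). MCM3, MCM7 and MCM2 moved by 0.18 ± 0.17, -0.03 ± 0.17 and 0.10 ± 0.16 in ime2Δ, none called. In ime2Δ, 2 of the 10 genes, MCM5 and CDC7, were called over this interval and 9.99% of all genes were. The CDC7 call (0.86 ± 0.21, adjusted p = 0.022) was lost without any 1 of the 4 arrays compared (adjusted p up to 0.168) and when only the groups compared were fitted (adjusted p = 0.054).

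The values for CDC6 (-1.75 ± 0.62, limma adjusted p = 0.0328) and DBF4 (-0.67 ± 0.26, adjusted p = 0.0465) in this difference were less secure. Each lost its call without any 1 of several arrays (adjusted p up to 0.132 and 0.194). In DBF4 the difference came with an uncalled 0.57 ± 0.18 in ime2Δ (adjusted p = 0.0692) beside -0.11 ± 0.18 in WT. CDC7 had -0.67 ± 0.30 (adjusted p = 0.0825).

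**Figure D3:**
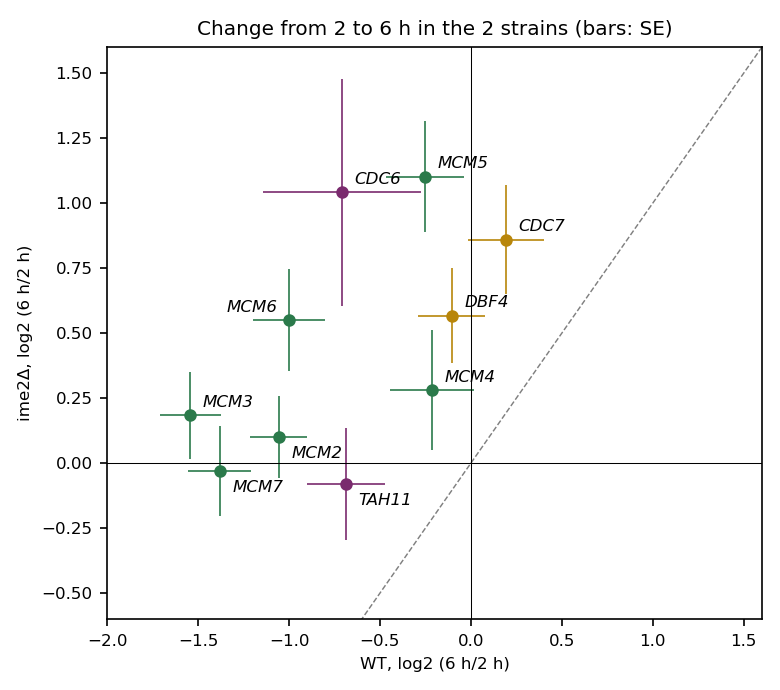
Change between 2 and 6 h (log2) in WT on the horizontal and in ime2Δ on the vertical axis, with bars for the SE, for MCM genes (green), loading factors (purple) and kinase genes (yellow). The dashed line marks equal change, and all 10 genes lay above it, with MCM3 at -1.54 in WT and 0.18 in ime2Δ.

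Taken over 0 to 6 h, the difference between strains was called lower in WT for 6 genes, where 25.1% of all genes were called lower and 50.1% in either direction. These were MCM3 (-1.87 ± 0.24), MCM7 (-1.43 ± 0.24), MCM6 (-1.36 ± 0.28), MCM5 (-1.16 ± 0.30), MCM2 (-1.0 ± 0.22) and TAH11 (-0.99 ± 0.30), with limma adjusted p from 4.11e-05 to 0.0161. These comparisons share arrays with those above and are not independent of them. The TAH11 call was lost without either 0 h array of the first replicate or either 6 h array of the second (adjusted p up to 0.074).

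The summed signal of the haploid marker list was highest on the same WT 6 h arrays, mainly through 1 gene. Its 13 genes, which mark cells other than MATa/α diploids, were all measured, and 12 were well above background on all 16 arrays. Their summed signal, in units of the array median, was 34.3 and 35.7 in WT at 6 h, and between 2.73 and 9.08 on the other 14 arrays (6.83 and 7.58 in ime2Δ at 6 h). STE18, a G protein subunit gene of the mating pathway, stood at a log2 level of 4.50 in WT at 6 h and between -5.24 and -0.03 on the other arrays. Without STE18 the sum was 12.4 and 12.2 in WT at 6 h and between 2.66 and 8.46 on the other arrays. Other genes of the list also stood apart at 6 h, such as STE3 (1.33 in WT and -2.46 in ime2Δ) and STE4 (1.59 and -1.30). The pheromone receptor gene STE2 did not, at -3.0 in WT and -2.97 in ime2Δ. Between WT and ime2Δ at 6 h, 8 of the 13 were higher and 1 lower (median 0.68), where 31.1% of all genes were called higher and 33.1% lower. The part of this list in the fall of the MCM genes was not tested.

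Ratios between genes on the same array do not depend on the scaling of arrays, and those given here were set out after the values had been seen, as a description. The log2 ratio of MCM5 to MCM3 changed between 0 and 6 h by 1.79 and 2.23 in the 2 WT replicates and by 1.54 and 1.04 in those of ime2Δ. Thus the mRNAs of 2 subunits of the same ring changed by different amounts in both strains. In each strain the MCM5 signal lay below that of MCM3 on every array at 0 h and above it on every array at 6 h. The 2 genes were read by different probes, so this order does not tell which mRNA was more abundant. By 2 h in WT, MCM5 had risen by 0.75 and MCM3 had changed by 0.03. Over 0 to 6 h in WT, MCM3 changed by -1.51 and MCM5 by an uncalled 0.498. In ime2Δ over 0 to 6 h, MCM5 changed by 1.66 and MCM3 by an uncalled 0.36. The mean of CDC7 and DBF4 over the mean of the 6 MCM genes changed by 1.87 and 2.09 in WT and by 0.40 and 0.60 in ime2Δ over the same interval. At 2 h these changes were 0.95 and 1.1 in WT and 0.09 and 0.22 in ime2Δ, so that the replicates of the strains did not overlap at either time. This ratio sets genes seen to rise in WT against genes mostly seen to fall there by 6 h, so its separation restates those values. Other ratios overlapped between the strains over 0 to 6 h. MCM5 to MCM7 changed by 1.53 and 1.93 in WT and by 1.85 and 1.08 in ime2Δ. DBF4 to CDC7 changed by -0.18 and 0.13 in WT and by -0.48 and 0.61 in ime2Δ.

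Among themselves, the members fell into partly like courses over the 8 group means, given as a description of points that share arrays and time. Pearson's r was 0.949 for MCM3 and MCM7, 0.927 for CDC7 and DBF4, 0.894 for MCM2 and TAH11, and 0.855 for MCM4 and MCM6. MCM5 was nearer to DBF4 (0.844) than to MCM7 (-0.057). Of 5863 other genes well above background on all arrays, the profiles most like DBF4 were those of CSM2 (0.999), ILM1 (0.997) and CSA1 (0.990). For CDC7 they were SPC34 (0.987), ELM1 (0.982) and TUB1 (0.982), for CDC6 SEN54 (0.987), PDB1 (0.956) and YNL165W (0.951), and for TAH11 CYM1 (0.965), YJR124C (0.963) and YGR210C (0.956). For the mean of the MCM genes they were YER189W (0.983), YEL075C (0.982), HSH155 (0.971), YPL071C (0.968) and EAF5 (0.956), of which the first 2 belong to repeated subtelomeric sequence and may share signal with near-identical copies.

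Genes that act on either side of the helicase were mixed in direction. Of the 6 origin recognition complex genes, 3 were higher and 2 lower in WT than in ime2Δ at 6 h, with ORC3 at 3.36 ± 0.16 (limma adjusted p = 2.25e-09) and ORC1 at 2.01 ± 0.22 (adjusted p = 6.68e-06) above, and ORC2 at -1.26 ± 0.20 (adjusted p = 0.000157) and ORC4 at -0.64 ± 0.16 (adjusted p = 0.00333) below. Of all genes, 31.1% were called higher, 33.1% lower and 64.2% in either direction at this time. The median was 0.40 over the list and -0.10 over all genes. So the complex that receives the ring held genes that stood on both sides of ime2Δ, where the called MCM genes stood below it.

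Of 10 helicase activation genes, 3 were higher and 1 lower at 2 h than at 0 h in WT, and 4 were higher in WT than in ime2Δ at 2 h (medians 0.25 and 0.47, against -0.10 and -0.03 over all genes). All genes had 22.2% called higher and 49.4% in either direction in WT at 2 h. Between the strains at 2 h, 9.05% of all genes were called higher in WT. CDC45, the helicase cofactor recruited after DDK has acted, rose by 2.46 ± 0.24 at 2 h in WT (limma adjusted p = 6.94e-06) and by 1.24 ± 0.24 in ime2Δ (adjusted p = 0.00156), and was 1.31 ± 0.24 higher in WT (adjusted p = 0.00293). SLD2, a target of S phase cyclin-dependent kinase, was 1.28 ± 0.27 higher in WT at 2 h (adjusted p = 0.00622). Between 2 and 6 h in WT, 4 of the 10 fell and 2 rose, with SLD2 at -1.83 ± 0.27 and CDC45 at -1.71 ± 0.24 among the falls and the GINS subunit gene PSF3 at 2.21 ± 0.39 and MCM10 at 1.04 ± 0.21 as the rises. Over this interval 32.5% of all genes were called lower and 62.9% in either direction.

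**Figure D4:**
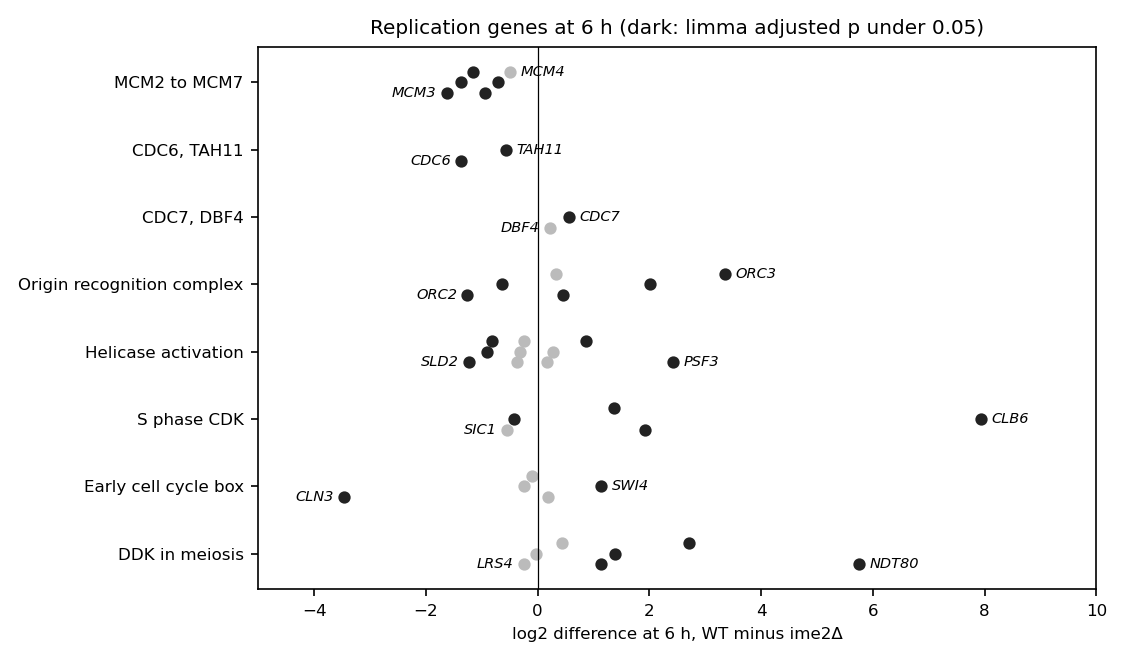
Difference at 6 h (log2, WT minus ime2Δ) for the 10 genes and for 5 lists of genes around them, 1 point a gene, dark where limma's adjusted p was under 0.05. The genes at the ends of each row are named. The called MCM genes lay between -0.71 and -1.62, while the origin recognition complex spanned -1.26 to 3.36 and CLB6 stood at 7.93.

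Of the 5 S phase cyclin-dependent kinase genes, the cyclin gene CLB6 was 4.43 ± 0.32 higher in WT at 2 h (limma adjusted p = 1.11e-06) and 7.93 ± 0.32 higher at 6 h, and CLB5 was 1.91 ± 0.38 higher at 6 h (adjusted p = 0.000816). At 6 h 3 of the 5 were higher and 1, CKS1, lower (-0.42 ± 0.17, adjusted p = 0.0399), with a median of 1.36. Over all genes the shares called at 6 h were 31.1% higher and 33.1% lower. The early cell cycle box is the Mcm1 binding element of several MCM genes, CDC6, SWI4 and CLN3, which Yox1 and Yhp1 repress in mitotic cells. Of the 5 genes listed for it, at 6 h CLN3 was -3.47 ± 0.38 lower in WT (adjusted p = 6.1e-06), SWI4 was 1.14 ± 0.28 higher (adjusted p = 0.00343), and YOX1 differed by -0.25 ± 0.29 (adjusted p = 0.465). At 2 h in WT, YOX1 rose by 1.98 ± 0.29 (adjusted p = 0.000123) and CLN3 fell by 2.00 (SE 0.38, adjusted p = 0.000913).

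Of 7 genes tied to DDK in meiosis, 5 were higher and 1 lower at 2 h than at 0 h in WT, and 3 were higher in WT than in ime2Δ at 2 h (medians 1.0 and 0.60), where 22.2% of all genes were called higher in WT at 2 h, 49.4% in either direction, and 9.05% higher in WT than in ime2Δ. RIF1, whose product brings the phosphatase that opposes DDK, rose by 1.51 ± 0.21 (limma adjusted p = 9.77e-05), and CSM1, a monopolin subunit, by 1.5 ± 0.16 (adjusted p = 1.22e-05). MER2, a recombination initiation factor that DDK phosphorylates, was 0.96 ± 0.17 higher in WT at 2 h (adjusted p = 0.00174). SUM1, the repressor of NDT80, fell by 0.70 at 2 h in WT (adjusted p = 0.0222) and by 0.81 in ime2Δ (adjusted p = 0.0128). NDT80 itself, the transcription factor for exit from pachytene, was 5.75 ± 0.28 higher in WT than in ime2Δ at 6 h (adjusted p = 2.16e-09).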

How the data were processed

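The authors made the spot intensity values with Agilent Feature Extraction (10.7.1.1), which subtracts background, and deposited them unscaled. The deposited series table, log2 values with a median of 0 in each column, served as an alternative. Here the log2 intensity of the 2 spots of a gene was averaged and the array median subtracted. Flagged outlier spots (0 to 13 an array) were left out. Medians of signal were 7579.6 to 14875, and 5939 to 6149 genes had both spots well above background. The number of arrays limits the precision. The 8 group means were fitted with limma (3.58.1, R 4.3.3) on all arrays, and IME2 and TRP1 were left out of the 6254 genes tested. The fit was tested on simulated data. Standard symbols came from RefSeq (5756 of 6256 genes). All members are named. Of each list, at most the 2 largest and the 2 smallest differences are named, and the most alike genes are the 5 highest correlations for the MCM mean and 3 for the other genes. Members and lists were chosen with earlier results of these data known. Alternatives were other scalings, normexp background correction (offset 50), the deposited log2 table, leaving out dim probes, fitting the replicate as a block, other moderation, 1 spot per gene, and each array left out. Sequences were not used here.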

Additional observations from a re-analysis of the deposited data

Results flagged for a closer look

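The change of 8 genes over at least 1 interval differed between WT and ime2Δ by a test of the difference itself (limma, adjusted over all genes), and each value was lower in WT. Over 0 to 4 h these were MCM3 (-0.96, adjusted p = 0.0162) and MCM7 (-1.32, adjusted p = 0.0031). Over 0 to 6 h they were MCM2 (-1.0, adjusted p = 0.00269), MCM3 (-1.87, adjusted p = 4.11e-05), MCM5 (-1.16, adjusted p = 0.00699), MCM6 (-1.36, adjusted p = 0.0016), MCM7 (-1.43, adjusted p = 0.00046) and TAH11 (-0.99, adjusted p = 0.0161). Over 2 to 6 h they were MCM2 (-1.16, adjusted p = 0.00115), MCM3 (-1.73, adjusted p = 9.1e-05), MCM5 (-1.35, adjusted p = 0.00303), MCM6 (-1.55, adjusted p = 0.000725), MCM7 (-1.35, adjusted p = 0.000763), CDC6 (-1.75, adjusted p = 0.0328) and DBF4 (-0.67, adjusted p = 0.0465). The 3 intervals share arrays, and the first 2 were added after the others had been set. Groups of 2 arrays were too small for a test of single outlying arrays.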

How the results depend on the processing

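Of 69 called values of single genes, 0 changed sign in any alternative. The counts that follow cover the 122 single-gene values that were called or at least 0.3 in size. Of their 1220 values under other settings, 1138 kept their direction and side of the threshold, 31 lost and 51 gained a call. Of 608 with 1 array left out, 71 lost and 8 gained a call, and 7 changed sign. The other 78 values, uncalled and smaller, were counted apart, and 90 of their 1132 alternative values changed sign. Scaling to the 75th percentile shifted all values, by 0.26 for WT at 2 h against 0 h, by -0.30 for WT between 6 and 2 h and by -0.28 for WT against ime2Δ at 6 h. Counts of the 10 genes called moved as follows. Here and in the next paragraph they lack the share of all genes called under the same setting, so they describe the settings and not the members. With this scaling, 8 fell in WT between 4 and 6 h, and in ime2Δ 4 rose at 2 h and 8 at 6 h. The scaling itself moved all genes by -0.24, 0.26 and 0.27 in these comparisons. In ime2Δ at 2 h, quantile normalization and robust moderation gave 2 each, and normexp correction, only the groups compared and the brighter spot (chosen after seeing the data) gave 0. Only the groups compared gave 1 in WT between 2 and 4 h and 1 in ime2Δ between 2 and 6 h. The dimmer spot, also chosen after seeing the data, gave 5 for WT against ime2Δ at 6 h, and normexp gave 1 for the difference between strains in the 4 h change.

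Same-numbered arrays, which share a slide, tended to deviate together: the correlation of their deviations was over 0.1 in 26 of 28 pairs of groups (range 0.075 to 0.535, median 0.224). The block was kept as an alternative because pairing was accepted only with every pair over 0.1. The main fit therefore takes no account of this shared deviation. With the replicate block, 2 genes were called in ime2Δ at 2 h, 1 in ime2Δ between 2 and 4 h and 1 in the difference between strains in the 2 h change (CDC7), and 9 for WT against ime2Δ at 6 h. The block ended no call of a single gene and added 13. These were MCM4 in 5 comparisons (adjusted p 0.00568 to 0.0375), MCM5 in 4 (0.0142 to 0.0424), CDC7 in the 3 differences in change over 2 h (0.0301), 4 h (0.0297) and 2 to 6 h (0.0236), and DBF4 in ime2Δ between 2 and 6 h (0.0489). Leaving out 1 array gave 2 to 3 genes for WT at 2 h, 5 to 6 at 4 h and 6 to 7 at 6 h against 0 h, 1 to 2 between 2 and 4 h, 3 to 5 between 4 and 6 h and 4 to 5 between 2 and 6 h. In ime2Δ it gave 0 to 1, 2 to 5 and 4 to 5 against 0 h, and 0 to 2 between 2 and 6 h. For WT against ime2Δ it gave 1 to 2 at 2 h, 2 to 4 at 4 h and 4 to 7 at 6 h, and for the differences in change 1 to 2 over 4 h, 5 to 6 over 6 h and 5 to 8 over 2 to 6 h. Among the values of at least 0.3 in size, uncalled CDC6 values changed sign, in each case when 1 ime2Δ array at 2 or 4 h was left out. With each array left out in turn, CDC6 in ime2Δ ranged from -0.29 to 1.19 at 4 h against 0 h, from -0.42 to 1.07 at 4 h against 2 h and from -0.028 to 1.46 at 6 h against 4 h. Between the strains it ranged from -0.052 to 0.83 at 2 h and from -0.28 to 1.2 at 4 h, and for the difference in the 4 h change from -0.030 to 1.46.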
